A study of Homo sapiens with 36 samples.

Results

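Asparagine synthetase and 9 enzymes of serine, mitochondrial one-carbon, proline and cysteine metabolism were followed through SCD inhibition and SCD knockdown in the human melanoma lines 501mel and IGR37. The 10 genes (ASNS, PHGDH, PSAT1, PSPH, SHMT2, MTHFD2, ALDH1L2, PYCR1, ALDH18A1 and CTH) were picked by symbol, with earlier results of these data known. Because of that choice, member counts set beside the shares of all genes are a description only. All 10 were among the 12896 genes present in both expression tables. SCD (stearoyl-CoA desaturase) puts a double bond into saturated fatty acids. Each line had 6 groups of 3 libraries, 36 libraries in all, every one taken at 48 h per the labels. SCDi cells received the SCD inhibitor labelled A939372 at 1 uM, and their control was DMSO, with no concentration given in the labels. The siSCD_1 and siSCD_2 cells received siRNA 1 or siRNA 2 against SCD at 20 nM. Their controls were the control siRNA groups siCTR_1 and siCTR, also at 20 nM, and the labels do not say whether these controls differ in sequence. Both lines were kept in RPMI-1640 with fetal bovine serum and antibiotics.

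The libraries were QuantSeq Forward libraries, which give 1 tag near the 3' end of a transcript, and values are log2 CPM (reads per gene scaled to library size). A table of 24 libraries held SCDi, DMSO, siSCD_2 and siCTR, with 4078450 to 6685898 gene reads per library, and a table of 12 libraries held siSCD_1 and siCTR_1, with 2402788 to 7483010. The tables had been normalised separately, so tests were made only within a table. SCD mRNA was lower with both siRNAs, by -2.85 (siSCD_1) and -4.33 (siSCD_2) on the log2 scale in 501mel and by -2.67 and -4.15 in IGR37. Under SCDi, which acts on the protein, SCD mRNA changed by 0.29 in 501mel (not called) and was higher by 0.63 in IGR37. The 3 IGR37 siSCD_2 libraries were spread, with SCD at 6.52, 5.32 and 6.09 log2 CPM. All 7 melanocyte lineage markers were present in both tables, with a summed level of 2199 to 5673 CPM per library. Markers of other cell types summed to 3.93 to 21.1 CPM over the 5 of 12 listed in the larger table and the 3 of 12 in the smaller one. Under SCDi in IGR37 that sum was 4.15 to 5.31 CPM, against 15.0 to 17.5 CPM with DMSO, and its part in the results was not tested. COL1A1 was at 0 reads in that SCDi group and also with siSCD_2 in IGR37, where the sum was 16.7 to 20.5 CPM. Nothing in the labels tells if the 3 libraries of a group came from different cultures, and the p-values therefore speak of library-to-library spread, which may be technical. In such bulk samples fewer cells with a transcript and less transcript per cell cannot be told apart.

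ASNS makes asparagine from aspartate and glutamine. PHGDH, PSAT1 and PSPH turn the glycolytic intermediate 3-phosphoglycerate into serine in that order. In mitochondria SHMT2 moves a carbon from serine onto tetrahydrofolate and leaves glycine, MTHFD2 oxidises the carbon-carrying folate, and ALDH1L2 oxidises formyl-tetrahydrofolate to carbon dioxide with formation of NADPH. ALDH18A1 starts proline synthesis from glutamate and PYCR1 performs its last, reductive step. CTH splits cystathionine to cysteine, a source of glutathione. Many of these genes are known targets of ATF4, a transcription factor translated when cells lack amino acids or carry endoplasmic reticulum stress.

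Promoters of 6 members (ASNS, PHGDH, PSAT1, MTHFD2, ALDH18A1 and CTH) were matched by symbol in RefSeq promoter sequences of build GRCh38.p14, each running from 250 bases before to 50 bases after the start. Both strands were searched for the core TGATGNAA of the composite sites bound by C/EBP and ATF proteins, for the E-box CACGTG and for the CCAAT box CCAAT. The 3 motifs share no bases in these promoters. The promoters of 3 members are printed 5' to 3' on the gene's strand because these genes behaved differently: ASNS was called higher in all 6 SCD comparisons, PSAT1 was in 2 of them, and ALDH18A1 was called lower in 3. ASNS lies at chr7:97872359-97872658 (minus strand), PSAT1 at chr9:78296875-78297174 (plus strand) and ALDH18A1 at chr10:95656662-95656961 (minus strand). Capitals mark TGATGNAA in ASNS, CCAAT in PSAT1 and CACGTG in ALDH18A1.
ASNS: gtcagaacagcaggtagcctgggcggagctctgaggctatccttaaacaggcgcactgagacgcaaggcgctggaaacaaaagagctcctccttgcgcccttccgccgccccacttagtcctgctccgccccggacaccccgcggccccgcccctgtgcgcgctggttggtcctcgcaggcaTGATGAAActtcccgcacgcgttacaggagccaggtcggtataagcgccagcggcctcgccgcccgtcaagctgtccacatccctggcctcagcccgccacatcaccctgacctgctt
PSAT1: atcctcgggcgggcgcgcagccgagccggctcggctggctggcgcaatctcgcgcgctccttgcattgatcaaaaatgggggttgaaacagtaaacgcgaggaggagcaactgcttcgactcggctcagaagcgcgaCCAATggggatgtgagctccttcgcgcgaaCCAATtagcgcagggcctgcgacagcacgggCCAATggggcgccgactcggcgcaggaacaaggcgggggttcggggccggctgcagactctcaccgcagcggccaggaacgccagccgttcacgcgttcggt
ALDH18A1: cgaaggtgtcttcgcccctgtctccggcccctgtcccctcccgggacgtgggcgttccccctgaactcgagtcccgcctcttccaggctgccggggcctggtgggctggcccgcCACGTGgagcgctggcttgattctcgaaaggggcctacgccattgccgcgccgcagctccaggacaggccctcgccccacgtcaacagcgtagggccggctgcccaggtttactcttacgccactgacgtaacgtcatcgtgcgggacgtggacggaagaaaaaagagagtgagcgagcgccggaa
The ASNS core TGATGAAA began 68 bases before the start, and TGATGNAA occurred in 3.62% of the 35116 promoters of this length in the table. PSAT1 had 3 CCAAT boxes, which began 113, 83 and 52 bases before its start. CCAAT was also found in PHGDH, CTH and, at 2 places, in MTHFD2, and in 34.6% of all promoters. The ALDH18A1 E-box began 136 bases before the start, and 7.26% of all promoters held 1 or more. A match here is a run of letters and not a measured binding site.

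SCD inhibition raised nearly the whole set in IGR37 and little of it in 501mel, and the siRNAs gave a different picture each. Changes are log2 fold changes ± SE from limma, fitted to all libraries of a table, with p adjusted by Benjamini-Hochberg (BH) across the whole table. A gene was called at an adjusted p under 0.05. In IGR37, SCDi against DMSO called 9 of 10 members higher and ALDH18A1 lower, where 20.9% of all genes were called higher and 23.1% lower, and the members' median change was 1.52. In 501mel the same comparison called ASNS alone of 9 members higher, where 0.232% of all genes were called higher and 0.0599% lower, and the median change was 0.23. ALDH1L2 was not assessed in 501mel, where every group held 3 or fewer reads in all.

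With siSCD_1 against siCTR_1, 7 of 9 members were called higher in 501mel, where 20.9% of all genes were higher and 22.0% lower. In IGR37 siSCD_1 called 8 of 10 higher and ALDH18A1 lower, where 16.7% of all genes were higher and 19.4% lower. The members' medians were 0.56 in 501mel and 0.91 in IGR37. With siSCD_2 against siCTR in 501mel, ASNS, PHGDH and CTH were called higher and PYCR1 lower of 9 members, where 18.3% of all genes were higher and 19.5% lower, and the median was 0.12. In IGR37 siSCD_2 called ASNS and CTH higher and PSPH, SHMT2, PYCR1 and ALDH18A1 lower, where 23.2% of all genes were higher and 22.7% lower, and the median was -0.03. The 2 higher members of 10 there are a share close to that of all genes. The median change of all genes lay between -0.01 and 0.01 in these 6 comparisons.

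**Figure D1:**
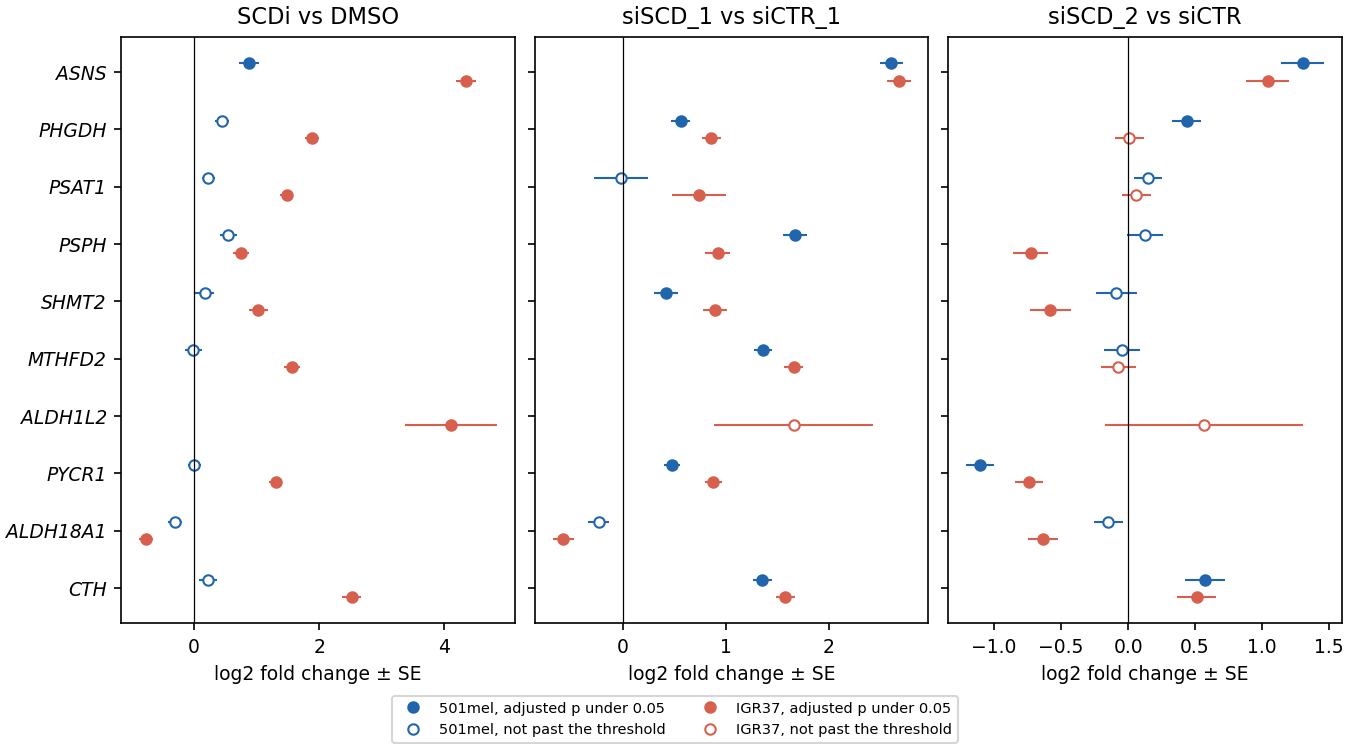
Log2 fold change ± SE of each enzyme (rows) with SCDi against DMSO, siSCD_1 against siCTR_1 and siSCD_2 against siCTR (panels, each with its own scale), in 501mel (blue) and IGR37 (red), 3 libraries per group. Filled points passed an adjusted p under 0.05; ASNS lies right of 0 in every panel and ALDH18A1 left of it, and ALDH1L2 has no 501mel point.

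ASNS (ENSG00000070669.16, chromosome 7, 97852118 to 97872542, minus strand of hg38) had the largest change of the members in IGR37 under SCDi. Its log2 CPM was 9.67, 9.69 and 9.58 with SCDi in IGR37, against 5.14, 5.47 and 5.29 with DMSO. That is a change of 4.34 ± 0.16 (adjusted p = 6.51e-17) or 20.3-fold, the rank 18 rise among 13364 genes. The SCDi libraries stood far above the DMSO libraries, with 12043 reads over the SCDi group against 636 over the DMSO group. In 501mel ASNS was at 6.05, 5.94 and 6.28 log2 CPM with SCDi, against 5.20, 5.18 and 5.25 with DMSO. The groups did not overlap and the change was 0.88 ± 0.16 (adjusted p = 0.00823). That call was lost without SCDi replicate 3 (0.78, adjusted p = 0.0681), with only the 2 groups compared in the fit (adjusted p = 0.0848) and without the variance trend (adjusted p = 0.0579).

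The siRNAs raised ASNS in both lines, and the siSCD_1 changes in the lines were close in size. ASNS was at 7.12, 7.31 and 7.48 log2 CPM with siSCD_1 in 501mel, against 4.91, 4.52 and 4.66 with siCTR_1, a change of 2.61 ± 0.11 (adjusted p = 1.12e-10). In IGR37 it was at 7.94, 7.99 and 8.21 with siSCD_1, against 5.40, 5.32 and 5.36 with siCTR_1, a change of 2.68 ± 0.11 (adjusted p = 1.38e-10). The treated libraries lay above the controls in each case. With siSCD_2 ASNS was at 5.76, 5.61 and 5.53 in 501mel, against 4.06, 4.60 and 4.32 with siCTR (1.30 ± 0.16, adjusted p = 3.77e-07). In IGR37 it was at 7.76, 6.83 and 7.49 with siSCD_2, against 6.26, 6.47 and 6.22 with siCTR (1.04 ± 0.16, adjusted p = 7.48e-06). Within the larger table the mean ASNS level went, from low to high, through 501mel siCTR, 501mel DMSO, IGR37 DMSO, 501mel siSCD_2, 501mel SCDi, IGR37 siCTR, IGR37 siSCD_2 and IGR37 SCDi. The DMSO groups of the lines overlapped in range, as did 501mel SCDi and IGR37 siCTR, and the other neighbours were apart.

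**Figure D2:**
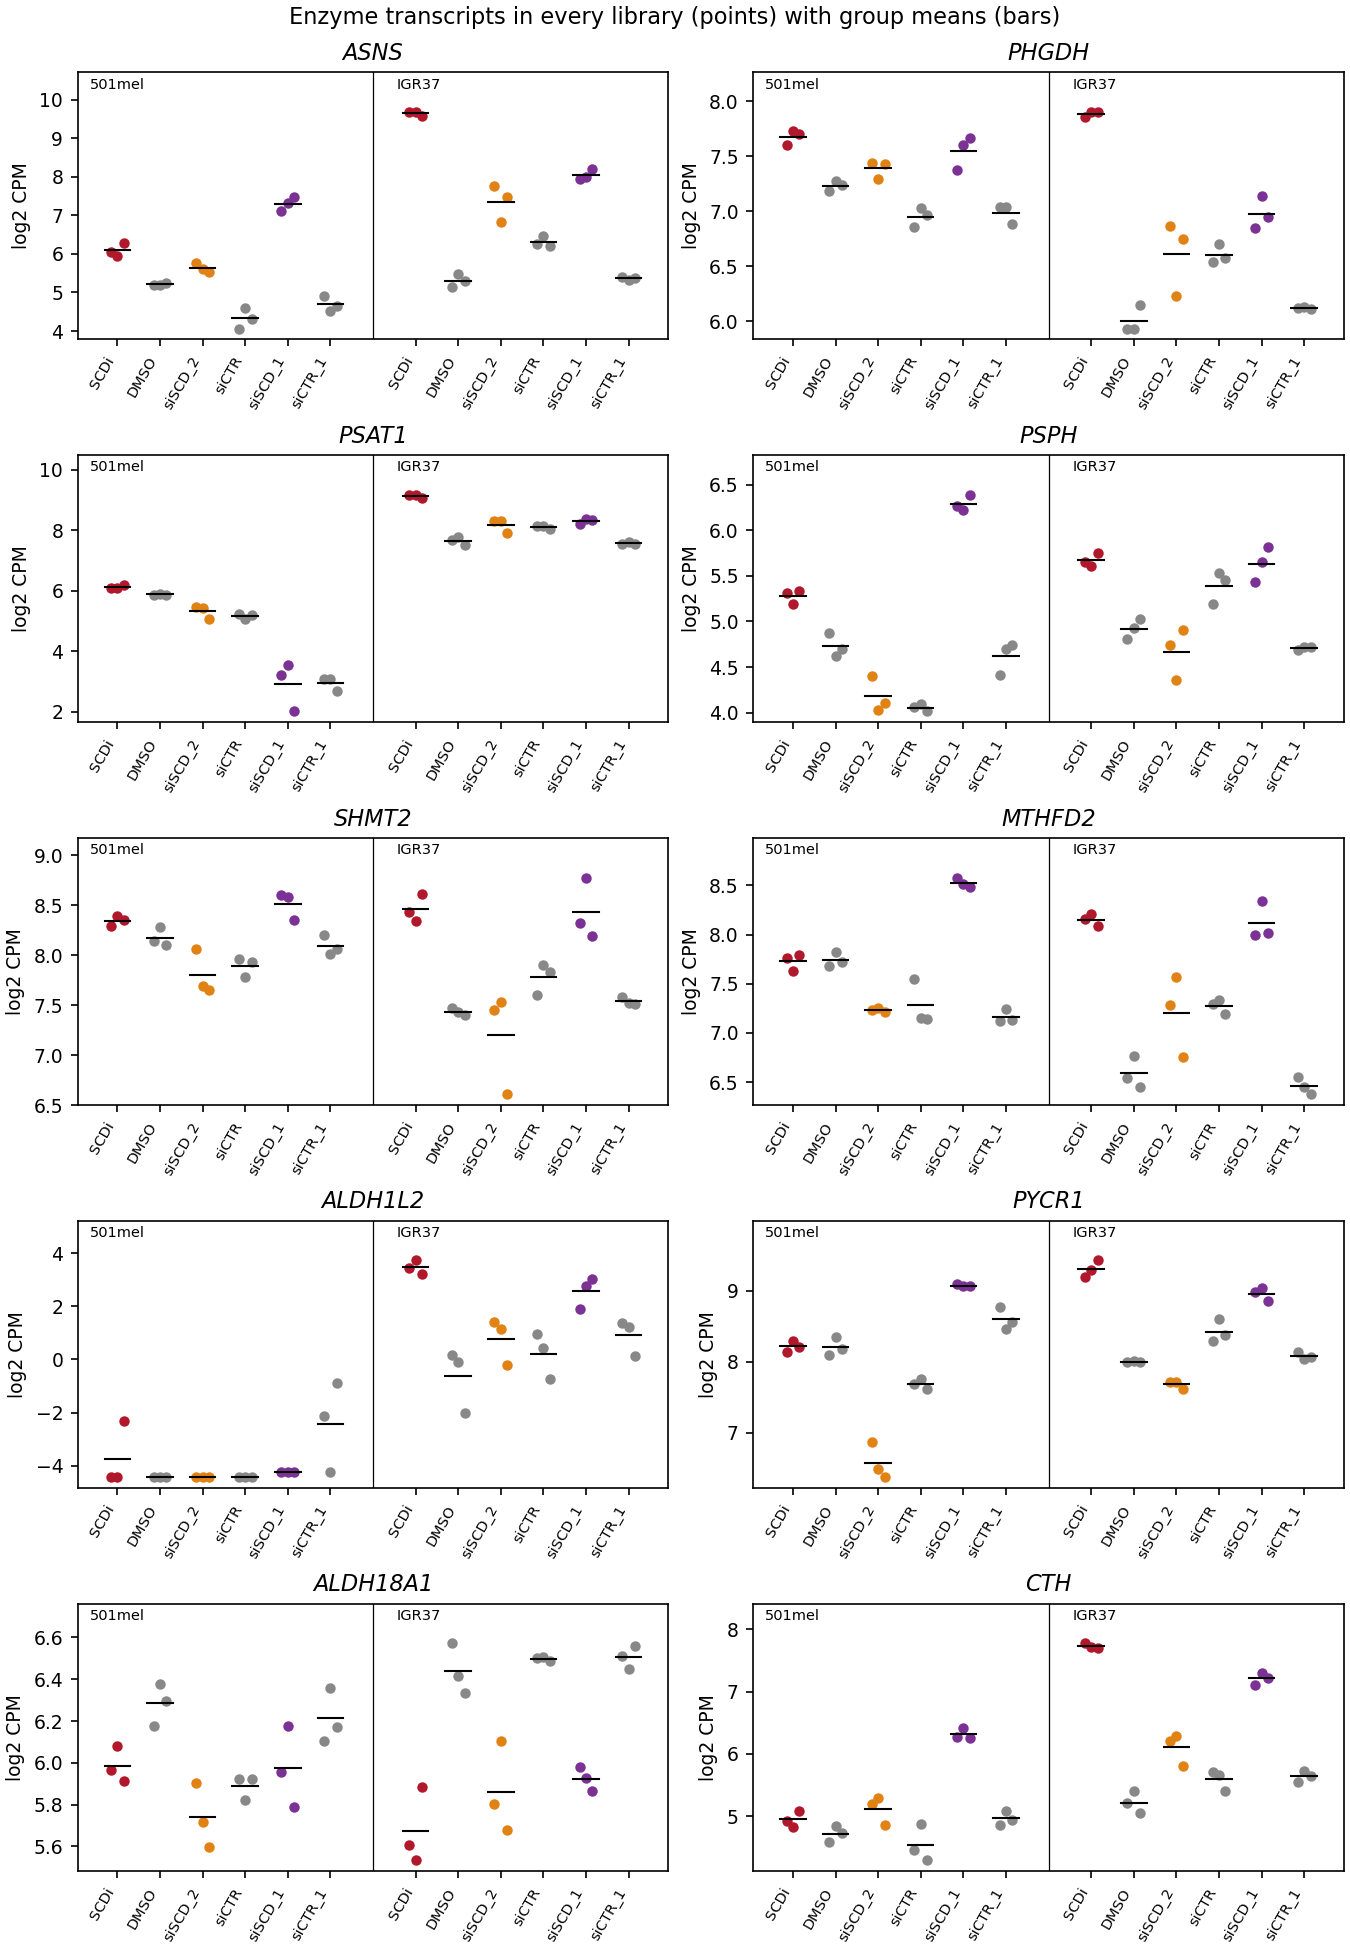
Log2 CPM (y axis) of each enzyme in all 36 libraries (points) with group means (bars), 501mel left and IGR37 right of the line, each treated group left of its control. The red IGR37 SCDi points are the highest of the larger table for every enzyme other than SHMT2 and ALDH18A1. ALDH1L2 points near -4.43 and -4.24 are libraries with 0 reads.

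The 3 serine synthesis enzymes rose together with SCDi in IGR37, and not all of them were called with the siRNAs. PHGDH (ENSG00000092621.12, chromosome 1, 119648411 to 119744226, plus strand), which commits glycolytic carbon to serine, was at 7.85, 7.90 and 7.90 log2 CPM with SCDi in IGR37, against 5.93, 5.93 and 6.15 with DMSO (1.88 ± 0.11, adjusted p = 6.16e-13). PSAT1 (ENSG00000135069.13, chromosome 9, 78297143 to 78330093, plus strand), the aminotransferase of the next step, was at 9.17, 9.16 and 9.06 with SCDi, against 7.68, 7.77 and 7.51 with DMSO (1.48 ± 0.11, adjusted p = 2.39e-11). PSPH (ENSG00000146733.13, chromosome 7, 56011051 to 56051604, minus strand), the phosphatase that releases serine, was at 5.65, 5.61 and 5.75 with SCDi, against 4.81, 4.92 and 5.03 with DMSO (0.75 ± 0.13, adjusted p = 5.16e-05). For all 3 genes the SCDi libraries were above the DMSO libraries. PSPH has a closely related pseudogene copy in the genome and the handling of reads that match both is not given in the sources used here, so its values carry that uncertainty.

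In 501mel SCDi left the serine enzymes below the threshold, although every SCDi library was above every DMSO library for all 3. Their changes were 0.44 ± 0.11 for PHGDH (adjusted p = 0.0877), 0.23 ± 0.11 for PSAT1 (adjusted p = 0.463) and 0.55 ± 0.13 for PSPH (adjusted p = 0.0804). With siSCD_1 PSPH was called in this line and PSAT1 was not. PSPH was at 6.26, 6.22 and 6.39 log2 CPM with siSCD_1 in 501mel, against 4.41, 4.70 and 4.74 with siCTR_1 (1.67 ± 0.12, adjusted p = 2.84e-08). PSAT1 was at 3.23, 3.56 and 2.02 with siSCD_1, against 3.08, 3.08 and 2.70 with siCTR_1, a change of -0.02 ± 0.26 (adjusted p = 0.97). The groups overlapped, and siSCD_1 replicate 3 was the lowest library, with 13 reads. Without it the PSAT1 change was 0.44 (adjusted p = 0.019).

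PHGDH was called higher with siSCD_1 in 501mel (0.56 ± 0.09, adjusted p = 0.000138) and in IGR37 (0.86 ± 0.09, adjusted p = 2.78e-06). PSPH was called higher with siSCD_1 in IGR37 too (0.92 ± 0.12, adjusted p = 2.02e-05). PSAT1 was at 8.19, 8.37 and 8.35 log2 CPM with siSCD_1 in IGR37, against 7.54, 7.62 and 7.54 with siCTR_1 (0.73 ± 0.26, adjusted p = 0.0384). The IGR37 groups of PSAT1 were apart, yet the call was lost on leaving out any 1 of the 6 libraries (adjusted p of 0.0637 to 0.0964) and without the variance trend (adjusted p = 0.111). The change itself stayed between 0.70 and 0.79 with any of these libraries left out. Its SE comes from the spread over all groups of the fit. The SD of PSAT1 was 0.05 (siCTR_1) and 0.10 (siSCD_1) in IGR37, and 0.81 with siSCD_1 in 501mel.

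With siSCD_2 the serine genes did not move as a set. PHGDH was called higher in 501mel (0.44 ± 0.11, adjusted p = 0.00246), and in IGR37 its change was 0.01 ± 0.11. PSAT1 changed by 0.15 ± 0.11 in 501mel and 0.06 ± 0.11 in IGR37, neither past the threshold, and without siSCD_2 replicate 3 the 501mel change was 0.28 (adjusted p = 0.039). PSPH changed by 0.12 ± 0.13 in 501mel. In IGR37 PSPH was at 4.74, 4.35 and 4.90 with siSCD_2, against 5.20, 5.53 and 5.46 with siCTR, a fall of -0.73 ± 0.13 (adjusted p = 7.59e-05) with no overlap. The DMSO libraries of that line held PSPH at 4.81, 4.92 and 5.03, a range that overlapped the siSCD_2 libraries.

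All 3 mitochondrial folate enzymes rose with SCDi in IGR37. MTHFD2 (ENSG00000065911.11, chromosome 2, 74198562 to 74217565, plus strand) was at 8.16, 8.21 and 8.09 log2 CPM with SCDi in IGR37, against 6.54, 6.77 and 6.45 with DMSO (1.56 ± 0.13, adjusted p = 5.98e-10). In 501mel it was at 7.77, 7.63 and 7.79 with SCDi, against 7.68, 7.82 and 7.72 with DMSO, and the groups overlapped. That 501mel change of -0.01 ± 0.13 has an interval (± 1.96 SE) of -0.27 to 0.25. With siSCD_1 MTHFD2 rose in both lines. It was at 8.58, 8.51 and 8.49 with siSCD_1 in 501mel, against 7.12, 7.24 and 7.13 with siCTR_1 (1.36 ± 0.09, adjusted p = 1.11e-08). In IGR37 it was at 7.99, 8.34 and 8.01 with siSCD_1, against 6.55, 6.45 and 6.38 with siCTR_1 (1.66 ± 0.09, adjusted p = 1.51e-09). With siSCD_2 the MTHFD2 changes were -0.05 ± 0.13 in 501mel and -0.07 ± 0.13 in IGR37, with overlapping groups.

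SHMT2 (ENSG00000182199.10, chromosome 12, 57229327 to 57234935, plus strand) rose with SCDi in IGR37 by 1.03 ± 0.15 (adjusted p = 4.99e-06), at 8.44, 8.34 and 8.61 log2 CPM with SCDi against 7.48, 7.43 and 7.40 with DMSO. It also rose with siSCD_1 in both lines, by 0.42 ± 0.12 in 501mel (adjusted p = 0.00923) and 0.89 ± 0.12 in IGR37 (adjusted p = 2.41e-05). In IGR37 with siSCD_2 it was at 7.45, 7.54 and 6.61, against 7.60, 7.91 and 7.84 with siCTR, a fall of -0.58 ± 0.15 (adjusted p = 0.00298). The low value of 6.61 came from the siSCD_2 library whose label and column numbers differ. Without that library the fall was -0.29 (adjusted p = 0.0344), and with only the 2 groups in the fit it was not called (adjusted p = 0.121).

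ALDH1L2 (ENSG00000136010.13, chromosome 12, 105019784 to 105084577, minus strand) was a low transcript seen almost only in IGR37. Its reads were 52, 72 and 44 with SCDi in IGR37, against 6, 5 and 1 with DMSO. That gave 168 reads against 12 and a ratio of 15.0 per effective library, with a fitted change of 4.10 ± 0.74 (adjusted p = 6.11e-05). The fitted change was 3.41 without DMSO replicate 3, the library with 1 read, and 4.51 without DMSO replicate 1, and it was called in both cases. The siSCD_1 libraries of IGR37 had 21, 17 and 28 reads, against 13, 14 and 8 with siCTR_1, a ratio of 3.06. On the log2 CPM scale those groups did not overlap, but the change of 1.66 ± 0.78 was not called (adjusted p = 0.11). Fits with only the 2 groups, with a pseudocount of 1 and with voom on recovered reads did call it (adjusted p of 0.0351, 0.00143 and 0.00222). With siSCD_2 it had 14, 9 and 5 reads in IGR37, against 9, 8 and 4 with siCTR.

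The 2 proline enzymes went opposite ways in IGR37 under SCDi and siSCD_1. PYCR1 (ENSG00000183010.16, chromosome 17, 81932384 to 81942412, minus strand) was at 9.19, 9.29 and 9.43 log2 CPM with SCDi in IGR37, against 8.00, 8.01 and 7.99 with DMSO (1.30 ± 0.10, adjusted p = 1.42e-10). ALDH18A1 (ENSG00000059573.8, chromosome 10, 95605929 to 95656706, minus strand) was at 5.61, 5.53 and 5.88 with SCDi, against 6.57, 6.41 and 6.33 with DMSO (-0.76 ± 0.11, adjusted p = 2.99e-06). Every SCDi library was above the DMSO libraries for PYCR1 and below them for ALDH18A1. With siSCD_1 in IGR37 the changes were 0.88 ± 0.08 for PYCR1 (adjusted p = 4.13e-07) and -0.58 ± 0.10 for ALDH18A1 (adjusted p = 0.000327). In 501mel siSCD_1 raised PYCR1 by 0.47 ± 0.08 (adjusted p = 0.000145), and ALDH18A1 changed by -0.24 ± 0.10 (adjusted p = 0.0703). That ALDH18A1 change was called without siSCD_1 replicate 2 (-0.34, adjusted p = 0.0169) and with centring on the median gene (-0.33, adjusted p = 0.0152).

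PYCR1 fell with siSCD_2 in both lines. It was at 6.87, 6.50 and 6.38 log2 CPM with siSCD_2 in 501mel, against 7.68, 7.77 and 7.62 with siCTR (-1.11 ± 0.10, adjusted p = 3.7e-09). In IGR37 it was at 7.71, 7.72 and 7.62 with siSCD_2, against 8.30, 8.60 and 8.37 with siCTR (-0.74 ± 0.10, adjusted p = 1.77e-06). Neither pair of groups overlapped, and within the larger table the lowest PYCR1 mean was that of 501mel siSCD_2. ALDH18A1 was at 5.80, 6.10 and 5.68 with siSCD_2 in IGR37, against 6.50, 6.50 and 6.49 with siCTR (-0.64 ± 0.11, adjusted p = 3.67e-05). The remaining ALDH18A1 changes, -0.15 ± 0.11 with siSCD_2 and -0.30 ± 0.11 with SCDi in 501mel, were not called, so its change was below 0 in 6 of 6 comparisons and called in 3.

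CTH (ENSG00000116761.11, chromosome 1, 70411218 to 70439851, plus strand) was called higher in 5 of 6 comparisons. It was at 7.78, 7.72 and 7.70 log2 CPM with SCDi in IGR37, against 5.20, 5.40 and 5.04 with DMSO (2.52 ± 0.15, adjusted p = 6.57e-13, 5.72-fold). With siSCD_1 it was at 6.27, 6.41 and 6.26 in 501mel, against 4.86, 5.08 and 4.94 with siCTR_1 (1.35 ± 0.09, adjusted p = 1.9e-08). In IGR37 the siSCD_1 change was 1.58 ± 0.09 (adjusted p = 4.6e-09). The siSCD_2 changes of CTH were smaller, at 0.57 ± 0.15 in 501mel (adjusted p = 0.00302) and 0.51 ± 0.15 in IGR37 (adjusted p = 0.00574). The 501mel siSCD_2 and siCTR groups overlapped by 1 value, and that call was lost with only the 2 groups in the fit (adjusted p = 0.0674). With SCDi in 501mel CTH changed by 0.23 ± 0.15 (adjusted p = 0.658).

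Whether the lines differed in response was tested as the difference of effects, IGR37 minus 501mel, over the 9 members assessed in both. For SCDi 7 members had a larger rise in IGR37, where 12.3% of all genes had a higher and 15.3% a lower effect there, and ALDH18A1 had a more negative one. The differences were largest for ASNS (3.47 ± 0.23, adjusted p = 2.75e-11), CTH (2.29 ± 0.21, adjusted p = 9.2e-09) and MTHFD2 (1.57 ± 0.19, adjusted p = 7.51e-07). PSPH was the exception, with a difference of 0.20 ± 0.19 (adjusted p = 0.467) and an interval of -0.17 to 0.57. The ALDH18A1 difference (-0.47 ± 0.16, adjusted p = 0.0267) was lost on leaving out any of 5 single libraries, namely 501mel DMSO replicate 1, 501mel SCDi replicate 2, IGR37 DMSO replicate 1 and IGR37 SCDi replicates 1 and 2 (-0.43 to -0.39, adjusted p of 0.0614 to 0.082).

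For siSCD_1 the difference was called higher for 1 of 9 members and lower for 1, where 10.0% of all genes were higher and 10.3% lower, shares close to those of the members. PYCR1 had the larger rise in IGR37 (0.40 ± 0.11, adjusted p = 0.0183) and PSPH the larger rise in 501mel (-0.75 ± 0.17, adjusted p = 0.00576). The ASNS difference was 0.07 ± 0.16, with an interval of -0.24 to 0.39. The PYCR1 call was lost without the variance trend (adjusted p = 0.0709) and under quantile normalization (0.16, adjusted p = 0.286). With siSCD_1 replicate 2 of 501mel left out the PSAT1 difference was called (1.06, adjusted p = 0.0363), as was that of ALDH18A1 without 501mel siSCD_1 replicate 3 (-0.44, adjusted p = 0.0442). The SHMT2 difference of 0.47 ± 0.17 was near the threshold (adjusted p = 0.0564). It was called without IGR37 siSCD_1 replicate 3 (0.59, adjusted p = 0.0112) and with the low-gene filter, a pseudocount of 1, centring, voom on recovered reads or the replicate block (adjusted p of 0.0279 to 0.0497), and not under quantile normalization (0.30, adjusted p = 0.199) or without the variance trend (adjusted p = 0.152). Centring also called PHGDH (0.41, adjusted p = 0.0435) and MTHFD2 (0.40, adjusted p = 0.0414).

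For siSCD_2 the called differences were those of PHGDH (-0.43 ± 0.16, adjusted p = 0.0492), PSPH (-0.85 ± 0.19, adjusted p = 0.00187) and ALDH18A1 (-0.49 ± 0.16, adjusted p = 0.0261), all lower in IGR37, where 11.6% of all genes were higher and 9.47% lower. The PHGDH call was lost without any of 9 of the 12 libraries, and was -0.24 (adjusted p = 0.132) without IGR37 siSCD_2 replicate 2. It was also lost with only the groups compared in the fit (adjusted p = 0.151), without the variance trend (adjusted p = 0.0861) and with the replicate block (adjusted p = 0.0521). The ALDH18A1 call was lost without any of 4 libraries, 501mel siCTR replicate 2, 501mel siSCD_2 replicate 1, IGR37 siSCD_2 replicate 1 and the unnumbered IGR37 siSCD_2 library (adjusted p of 0.057 to 0.0777), with only the groups compared in the fit (adjusted p = 0.0666) and with the replicate block (adjusted p = 0.125). The PYCR1 difference was called higher in IGR37 without 501mel siSCD_2 replicate 1 (0.51, adjusted p = 0.00606) or IGR37 siCTR replicate 2 (0.46, adjusted p = 0.034). That of SHMT2 was called lower without IGR37 siSCD_2 replicate 2 (-0.66, adjusted p = 0.0164).

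Inhibitor and siRNA 2 were set side by side within the larger table, as the SCDi effect minus the siSCD_2 effect, with each treatment against its own control. The siSCD_1 effect is not part of this comparison. In IGR37 the SCDi effect was called higher than the siSCD_2 effect for 9 of 10 members, where 18.7% of all genes were higher and 20.2% lower. PSPH, SHMT2 and PYCR1 of these were called lower with siSCD_2. In IGR37 siCTR was above DMSO for all 10 members (median 0.46), and that gap is part of each difference. The differences ran from 1.42 ± 0.15 for PSAT1 to 3.54 ± 1.04 for ALDH1L2 (adjusted p = 0.00872), with 3.30 ± 0.23 for ASNS and 2.04 ± 0.14 for PYCR1. ALDH18A1 was the member with no called difference (-0.13 ± 0.16, interval -0.43 to 0.18). In 501mel the difference was called for PYCR1 alone of 9 members (1.11 ± 0.14, adjusted p = 2.93e-06), where 11.5% of all genes were higher and 9.51% lower. The ASNS difference there was -0.43 ± 0.23 (adjusted p = 0.194), and that of PSPH was called without siSCD_2 replicate 1 (0.53, adjusted p = 0.0493).

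Under DMSO 3 of 10 members were called higher and 3 lower in IGR37 than in 501mel, where 31.1% of all genes were higher and 29.7% lower, so the members' shares were close to those of all genes. PSAT1 was at 7.68, 7.77 and 7.51 log2 CPM in IGR37 DMSO, against 5.87, 5.90 and 5.87 in 501mel DMSO (1.77 ± 0.11, adjusted p = 2.77e-13). PHGDH was lower in IGR37 by -1.23 ± 0.11 (adjusted p = 5.5e-10), MTHFD2 by -1.15 ± 0.13 (adjusted p = 4.98e-08) and SHMT2 by -0.74 ± 0.15 (adjusted p = 0.000183). CTH was higher in IGR37 by 0.50 ± 0.15 (adjusted p = 0.00498). ALDH1L2 had 12 reads over the IGR37 DMSO libraries and 0 over those of 501mel, at least 4.03-fold higher against a floor of 3 reads over the group. For ASNS the groups overlapped and the difference was 0.09 ± 0.16 (interval -0.22 to 0.40). After SCDi the mean PHGDH level was 7.88 ± 0.03 log2 CPM in IGR37 and 7.68 ± 0.07 in 501mel (SD, n = 3 each), so the order of the lines was the opposite of that under DMSO; this order was not tested.

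The siCTR groups differed from DMSO in these genes, lower in 501mel and higher in IGR37. In 501mel siCTR against DMSO called 6 of 9 members lower, where 4.74% of all genes were higher and 6.57% lower. ASNS was at 4.06, 4.60 and 4.32 log2 CPM with siCTR in 501mel, against 5.20, 5.18 and 5.25 with DMSO (-0.88 ± 0.16, adjusted p = 0.000489). PSAT1 (-0.71), PSPH (-0.67), PYCR1 (-0.52), MTHFD2 (-0.46) and ALDH18A1 (-0.39) were also called lower. The MTHFD2 call was lost on leaving out DMSO replicate 2 or 3 or siCTR replicate 2 or 3 (adjusted p of 0.063 to 0.106), and that of ALDH18A1 without DMSO replicate 2 or 3 or siCTR replicate 2 (adjusted p of 0.062 to 0.0823). For MTHFD2 it was also lost with only the groups compared in the fit (adjusted p = 0.0876) and without the variance trend (adjusted p = 0.0643).

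In IGR37 siCTR against DMSO called 6 of 10 members higher, where 6.46% of all genes were higher and 8.99% lower. ASNS was at 6.26, 6.47 and 6.22 log2 CPM with siCTR in IGR37, against 5.14, 5.47 and 5.29 with DMSO (1.01 ± 0.16, adjusted p = 7.1e-05). MTHFD2 (0.69), PHGDH (0.60), PSPH (0.47), PSAT1 (0.45) and PYCR1 (0.42) were also called higher, PSPH not without DMSO replicate 1 or siCTR replicate 2 or 3 (adjusted p of 0.0621 to 0.0815). The difference between the lines, tested after these values had been seen, was called higher in IGR37 for 8 of 9 members, where 9.01% of all genes were higher and 9.79% lower. These 2 comparisons share their control groups with the SCDi and siSCD_2 comparisons. ASNS with siSCD_2 in IGR37 therefore stood 1.04 above a siCTR group that was itself 1.01 above DMSO, while in 501mel it stood 1.30 above a siCTR group 0.88 below DMSO. For PYCR1 in IGR37 the means were 7.68 ± 0.06 log2 CPM with siSCD_2, 8.42 ± 0.16 with siCTR and 8.00 ± 0.01 with DMSO (SD, n = 3 each).

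**Figure D3:**
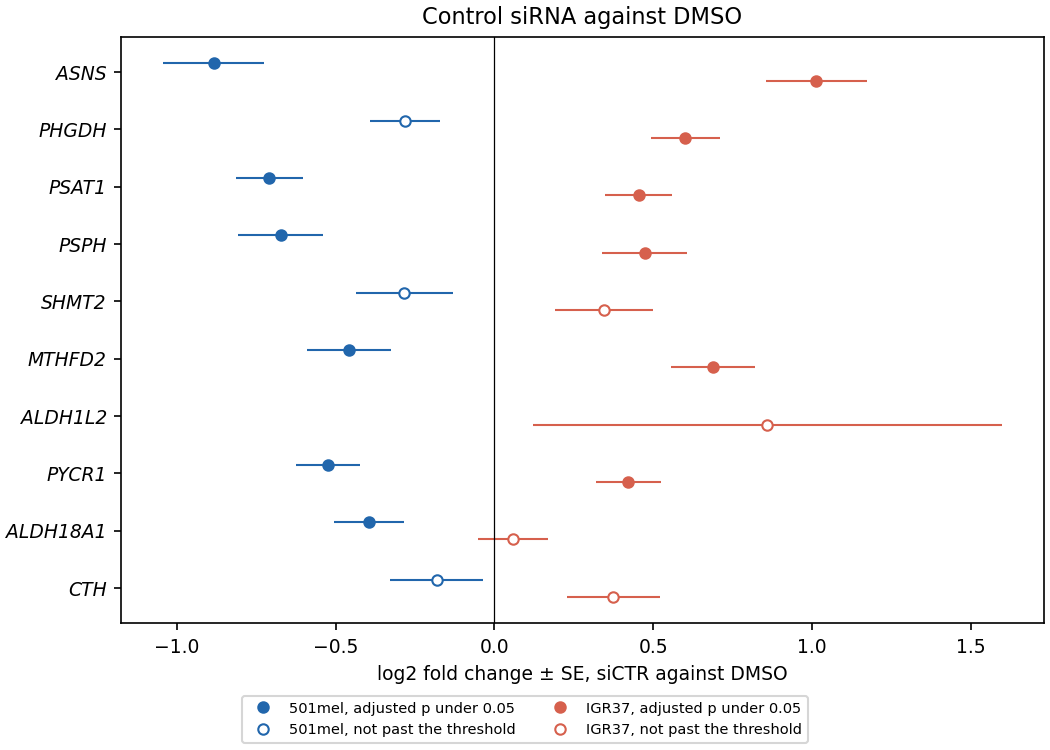
Log2 fold change ± SE of each enzyme with the control siRNA siCTR against DMSO, in 501mel (blue) and IGR37 (red), 3 libraries per group; filled points passed an adjusted p under 0.05. The 501mel points lie left of 0 and the IGR37 points right of it, from -0.88 and 1.01 for ASNS; ALDH1L2 has no 501mel point.

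Paralogs of the members that work in the cytosol mostly did not rise with them. SHMT1, the cytosolic serine hydroxymethyltransferase, fell with SCDi in IGR37 (-0.93 ± 0.17, adjusted p = 8.8e-05) and with siSCD_1 in IGR37 (-0.76 ± 0.19, adjusted p = 0.0044), the comparisons in which SHMT2 rose by 1.03 and 0.89. MTHFD1, the cytosolic folate enzyme with 3 activities, fell with SCDi in IGR37 (-0.57 ± 0.13) and with siSCD_1 in 501mel (-0.50 ± 0.12) and IGR37 (-0.66 ± 0.12), the comparisons in which MTHFD2 rose by 1.56, 1.36 and 1.66. MTHFD1L, the mitochondrial formyl-tetrahydrofolate synthetase, was called higher with SCDi in IGR37 (0.76 ± 0.14) and in 501mel with siSCD_1 (0.35 ± 0.10) and siSCD_2 (0.47 ± 0.14). MTHFD2L was not called in any of the 6 comparisons, nor was ALDH1L1, assessed in 501mel alone. The difference between a member and its paralog was not tested.

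PYCRL, the cytosolic reductase, fell with SCDi in IGR37 (-1.48 ± 0.22, adjusted p = 3.9e-06) and siSCD_1 in 501mel (-0.64 ± 0.22). With siSCD_2, where PYCR1 fell, the PYCRL changes of -0.12 ± 0.22 in 501mel and -0.14 ± 0.22 in IGR37 were not called.

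**Figure D4:**
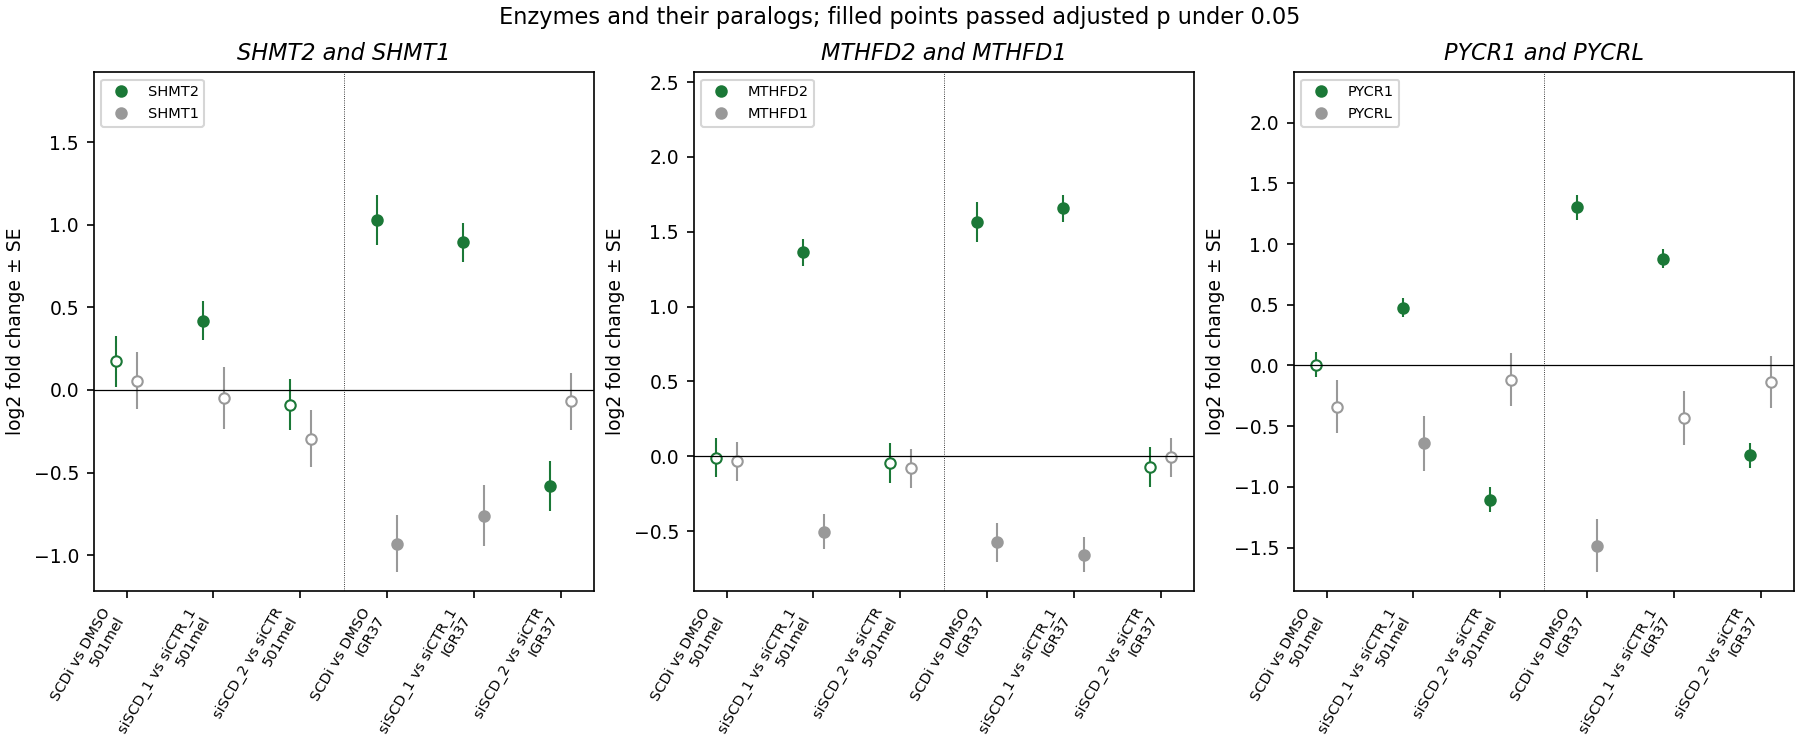
Log2 fold change ± SE of SHMT2, MTHFD2 and PYCR1 (green) and of a paralog (grey) in the 6 comparisons, 501mel left and IGR37 right of the dotted line; each panel has its own scale and filled points passed an adjusted p under 0.05. SHMT1 and MTHFD1 lie below 0 where SHMT2 and MTHFD2 lie above it in IGR37 with SCDi and siSCD_1, and PYCRL lies below 0 in all 6 comparisons.

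Neighbouring pathway genes moved in both directions with SCDi in IGR37, where 20.9% of all genes were called higher and 23.1% lower. Of 14 assessed genes of folate and glycine metabolism, SCDi in IGR37 called 3 higher, close to the share of all genes, and 6 lower (median -0.49), the lower ones including TYMS, the thymidylate synthase (-1.50 ± 0.10), and SLC19A1, the reduced folate carrier (-1.61 ± 0.21). Of 8 purine synthesis genes, 6 were called lower there and the other 2 were not called (median -0.45), with PFAS at -1.06 ± 0.12. IMPDH1, the first enzyme towards guanine nucleotides, fell with siSCD_2 by -3.15 ± 0.14 in 501mel and -2.45 ± 0.14 in IGR37. A fall of that size was seen with siSCD_2 alone. The lowest change of any of the 8 purine genes was -0.86 (501mel) and -0.62 (IGR37) with siSCD_1. With SCDi it was -0.37 (501mel) and -1.06 (IGR37). Of 8 genes of asparagine, aspartate and glutamate metabolism, 3 were called higher and 2 lower with SCDi in IGR37. GPT2, the mitochondrial alanine aminotransferase, rose there (1.44) as with siSCD_1 in 501mel (1.60) and IGR37 (1.79). GOT1, the cytosolic aspartate aminotransferase, rose by 1.40, and GOT2, its mitochondrial form, fell by -0.55. ASRGL1, an asparaginase-like enzyme, fell in 5 of 6 comparisons, by -1.60 with SCDi in IGR37. Of 8 methionine cycle and transsulfuration genes 1 was called higher and 4 lower with SCDi in IGR37, and of 5 proline and ornithine genes 1 higher and 2 lower.

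ATF4 mRNA rose in all 6 comparisons, as ASNS did. Other members went another way: ALDH18A1 was below 0 in all 6, and PYCR1 was called lower with siSCD_2 in both lines. ATF4 was at 10.06, 10.02 and 10.06 log2 CPM with SCDi in IGR37, against 7.54, 7.44 and 7.76 with DMSO (2.47 ± 0.14, adjusted p = 3e-13). In 501mel it was at 9.28, 9.49 and 9.35 with SCDi, against 8.78, 8.58 and 8.70 with DMSO (0.69 ± 0.14, adjusted p = 0.019). Its other changes were 1.07 (501mel) and 1.81 (IGR37) with siSCD_1, and 0.58 (501mel) and 0.87 (IGR37) with siSCD_2. Of 6 genes of ATF4 and partner factors, SCDi in IGR37 called 5 higher and ATF5 lower, and siSCD_2 in IGR37 called 6 of 6 higher while 4 of 10 enzymes were called lower. Of all genes in IGR37, 20.9% were called higher and 23.1% lower with SCDi, and 23.2% and 22.7% with siSCD_2. DDIT3, a transcription factor of the stress response, changed by 4.14 ± 0.15 with SCDi in IGR37, and in 501mel by 3.39 ± 0.11 with siSCD_1 and, not called, 0.35 ± 0.15 with siSCD_2. MITF, the regulator of the melanocyte lineage, was called lower in all comparisons other than SCDi in 501mel, by -0.92 ± 0.08 with SCDi in IGR37 and -1.13 ± 0.08 with siSCD_2 in IGR37. Of the 7 lineage markers, MITF included, SCDi called 6 lower in IGR37, and in 501mel their changes of -0.11 to 0.20 were not called. With siSCD_1 1 was called higher and 6 lower in 501mel, and 2 were lower and 5 not called in IGR37. The shares of all genes with siSCD_1 were 20.9% higher and 22.0% lower in 501mel, and 16.7% and 19.4% in IGR37. With siSCD_2 2 lineage markers were higher in each line, with 4 lower in 501mel and 5 lower in IGR37. The shares of all genes with siSCD_2 were 18.3% higher and 19.5% lower in 501mel, and 23.2% and 22.7% in IGR37. The part of ATF4, its partner factors and the lineage markers in the enzymes' changes was not tested.

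The members differed among themselves in how closely they followed the members' median over the 6 comparisons. The root mean square distance on the log2 scale was 0.216 for PHGDH and 0.250 for PSAT1, against 1.75 for ASNS and 1.21 for ALDH18A1. The median is built from the members, so a member near the middle is close to it in part by construction. Among 6313 other genes, whose mean level was at or above the median gene in each table, the nearest to that median profile were MDM4 (0.143), PER1 (0.176), TULP3 (0.188), FKBP14 (0.189) and YARS (0.194), where YARS is the cytosolic tyrosyl-tRNA synthetase. This is a description over 6 comparisons, and it says nothing of shared function.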

How the data were processed

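Per the labels' protocols, RNA was purified with RNeasy and made into QuantSeq Forward libraries of 3' transcript ends. Per the submitters' processing notes, STAR, edgeR and hg38 were used, with no versions. The authors deposited 2 tables of normalised log2 values, which behaved as log2 CPM with a prior count averaging 0.25 and returned whole reads within 0.000423 reads. One held 13364 genes, 66 spike-ins and 1 other sequence, the other 13066 genes and 60 spike-ins. Spike-ins and that sequence stayed out of the tests. A gene with 0 reads could have a level of up to 0.388 to 1.19 CPM, by 3 counts (counting error only).

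Each table was fitted on the log2 values with limma 3.58.1 in R 4.3.3 (lmFit, contrasts.fit, eBayes with a variance trend), 1 coefficient per group. Tests were two-sided, in 15 comparisons. A gene was not assessed where both groups of a pair held 3 or fewer reads. Figures were drawn with Python 3.11.15 and coordinates are from GENCODE 29 (hg38). Intervals are ± 1.96 SE. The fits were tested on simulated data. Named genes were the 10 members, SCD, MITF, ATF4, the paralogs, called genes of the neighbouring lists with the smallest adjusted p first, and the 5 genes nearest the members' median. Some listed genes are not reported here and stayed out of the list counts. Members and lists were chosen with earlier results of these data known. Alternatives were a narrower fit (the groups of the comparison alone), a filter on low genes (over 2 on the log2 scale in 3 or more libraries), eBayes without the trend, a pseudocount of 1, quantile normalization, centring on the median gene, voom on recovered reads, leaving out each library, and the replicate block. The third IGR37 siSCD_2 column bears a number its labels do not, so it was given to the group without one.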

Additional observations from a re-analysis of the deposited data

Results flagged for a closer look

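The response to SCDi differed between the lines, by a test of the difference (IGR37 minus 501mel, log2 scale, limma, BH adjusted p over all genes), for 8 of 9 members. Of all genes 12.3% were called higher and 15.3% lower in that test. The difference was 3.47 for ASNS (adjusted p = 2.75e-11), 1.44 for PHGDH (1.53e-07), 1.25 for PSAT1 (7.09e-07) and 0.86 for SHMT2 (0.00408). It was 1.57 for MTHFD2 (7.51e-07), 1.30 for PYCR1 (2.49e-07), -0.47 for ALDH18A1 (0.0267) and 2.29 for CTH (9.2e-09).

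The response to siSCD_1 differed for PSPH (-0.75, adjusted p = 0.00576) and PYCR1 (0.40, adjusted p = 0.0183), 2 of 9 members, a share close to that of all genes. The response to siSCD_2 differed for PHGDH (-0.43, adjusted p = 0.0492), PSPH (-0.85, adjusted p = 0.00187) and ALDH18A1 (-0.49, adjusted p = 0.0261). For siSCD_2 11.6% of all genes were higher and 9.47% lower.

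The siCTR against DMSO contrast, which holds no SCD treatment, differed between the lines for 8 of 9 members in a comparison chosen after the data had been seen. Of all genes 9.01% were higher and 9.79% lower there. The difference was 1.90 for ASNS, 0.88 for PHGDH, 1.16 for PSAT1, 1.15 for PSPH, 0.63 for SHMT2, 1.15 for MTHFD2, 0.94 for PYCR1 and 0.45 for ALDH18A1, with adjusted p of 9.8e-07 to 0.043. The SHMT2 and ALDH18A1 differences were lost without the variance trend (adjusted p of 0.0955 and 0.0627) and on leaving out most single libraries.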

How the results depend on the processing

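Of 1127 values of member changes under the alternatives that kept every library, 1078 kept direction and side of the threshold, 17 were no longer called, 21 became called and 11 changed sign. With 1 library left out, 1073 of 1176 kept both and 35 changed sign; no value that changed sign was called in the reported fit. With only the groups compared in the fit, SCDi against DMSO in 501mel called 8 genes (39 as reported) and 0 members, the siSCD_2 difference between lines 1821 genes and 1 member (3), and siCTR against DMSO in 501mel 951 genes. Without the variance trend SCDi in 501mel called 0 members, and the siSCD_1 difference between lines 1, as under quantile normalization. Centring, which moved the all-gene median of that difference by 0.109, called 5 of its members.

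The sign changes were PYCR1 with SCDi in 501mel (-0.00974, centring), PHGDH with siSCD_2 in IGR37 (-0.0562 quantile, -0.00526 centring) and PSAT1 there (-0.0385, quantile), and PHGDH in SCDi minus siSCD_2 in 501mel (-0.00334 quantile, -0.0169 centring). Replicate numbers gave no sign of pairing: 0 of 17 same-numbered pairs had a residual correlation above 0.1. A low correlation cannot show that the libraries were unpaired. The replicate block gave 1 member for the siSCD_2 difference between lines. Its sign changes were PHGDH -0.0373 and MTHFD2 0.104 with siSCD_2 in IGR37, and PSAT1 0.00245, MTHFD2 0.15 and CTH 0.0235 in the siSCD_2 difference, and SHMT2 with siSCD_2 in IGR37 was -0.26 (adjusted p = 0.0782).

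With 1 library left out, SCDi in 501mel called 17 to 31 genes and 0 to 1 members, the siSCD_2 difference 1 to 3 members, SCDi minus siSCD_2 in 501mel 1 to 2, and siCTR against DMSO in 501mel 994 to 1215 genes. Ranges that crossed 0 were, in 501mel, MTHFD2 (-0.0389 to 0.0398) and PYCR1 (-0.0511 to 0.0765) with SCDi, PSAT1 with siSCD_1 (-0.33 to 0.44) and MTHFD2 with siSCD_2 (-0.116 to 0.0868). With siSCD_2 in IGR37 they were PHGDH (-0.12 to 0.20), PSAT1 (-0.0101 to 0.195) and MTHFD2 (-0.25 to 0.15). For the differences between lines they were ASNS with siSCD_1 (-0.032 to 0.165) and, with siSCD_2, ASNS (-0.462 to 0.00329), PSAT1 (-0.217 to 0.0476), MTHFD2 (-0.21 to 0.20) and CTH (-0.226 to 0.0874). In SCDi minus siSCD_2 in 501mel they were PHGDH (-0.0416 to 0.0544), PSAT1 (-0.0485 to 0.156) and MTHFD2 (-0.0951 to 0.108). The causes were not tested. Spike-in scaling was not run, because single spike-ins changed by -2.54 to 2.26 between groups. Their median change was -0.02 in 501mel and 0.30 in IGR37 with SCDi. It was 0.54 and 0.47 with siSCD_1, and 0.88 and 0.79 with siSCD_2, in the same order of lines. The enzymes' changes are thus relative to the other transcripts of a library, and changes against the spike-ins were not tested. Depth limits ALDH1L2, with at most 168 reads in a group.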

Other observations

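PSAT1 stood apart between the control siRNA groups of 501mel. It had 47, 50 and 26 reads (3.08, 3.08 and 2.70 log2 CPM) with siCTR_1, and 184, 178 and 193 reads (5.25, 5.08 and 5.19 log2 CPM) with siCTR. The mean was lower by -2.22 with siCTR_1, across separately normalised tables and with no test. Of 6448 genes at or above the median siCTR level of 501mel, 13, PSAT1 included, had a difference as low. The median difference of those 6448 genes was 0.05. Of all 12896 shared genes, 103 had a difference as low. The siCTR level that picked the 6448 genes is also part of the difference, so these counts are a description only. The siSCD_1 libraries of the same table held PSAT1 at 3.23, 3.56 and 2.02 log2 CPM, while in IGR37 PSAT1 was at 7.57 in siCTR_1 and 8.11 in siCTR on average.

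In IGR37 the siCTR_1 mean was below the siCTR mean for 7 of 10 members, by the most for ASNS (-0.95), MTHFD2 (-0.82) and PSPH (-0.68), and above it for ALDH18A1 (0.01), CTH (0.05) and ALDH1L2 (0.69). The median difference was 0.06 over 6448 genes in the upper part of the expression range of IGR37 siCTR, a set drawn separately from that of 501mel. Of those genes, 2777 were at or below the ALDH18A1 difference of 0.01. In 501mel the direction was the other one for most members: the siCTR_1 mean was above the siCTR mean for PYCR1 (0.91), PSPH (0.56), CTH (0.43), ASNS (0.37), ALDH18A1 (0.32), SHMT2 (0.20) and PHGDH (0.04), and below it for MTHFD2 (-0.11) as for PSAT1. ALDH1L2 had too few reads there to compare. The 501mel median over 6448 genes was 0.05, and 3170 of them were at or below the PHGDH difference.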
